A study of Mus musculus with 8 samples.

Results

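The genes described are 10 plasma membrane amino acid transporters, Slc38a1, Slc38a2, Slc7a1, Slc7a3, Slc7a5, Slc7a6, Slc7a11, Slc3a2, Slc1a4 and Slc1a5, taken by symbol from the 23284 genes of a deposited mouse expression table. They were measured by RNA sequencing in P19, a mouse line grown from an embryonal carcinoma. Cells were transfected with siUPF3A or with siControl, and 24 h later actinomycin D was added to every culture, the ones sampled at once included. RNA was taken 0, 15, 105 and 225 min after actinomycin D in the Upf3a siRNA arm and at the same times in the control siRNA arm. With 2 arms at 4 times there are 8 conditions, each with 1 value in the table although the labels name 2 cultures behind it, so n counts time points. The label for genotype, loss of UPF3A, stands for a transient siRNA, not a deleted gene.

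Amino acid transporters carry free amino acids across the plasma membrane, and cells that grow fast lean on them for protein synthesis and for one-carbon and glutathione metabolism. Several of their genes are targets of Atf4, the transcription factor of the integrated stress response, which binds C/EBP-ATF response elements in their regulatory DNA when amino acids run short. Actinomycin D stops new transcription, so what happens to an mRNA afterwards depends on how fast it is degraded. Upf3a belongs to the nonsense-mediated decay (NMD) pathway, which removes mRNAs with a stop codon out of its usual place; the series is titled as a half-life study upon its loss.

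The stretches of DNA below are shown because they hold the element through which Atf4 is known to act. RefSeq promoters (GRCm38.p6, 250 bases before to 50 bases after a transcript start) were at hand for 6 of the 10 transporters, Slc7a11, Slc1a4, Slc7a1, Slc7a6, Slc38a2 and Slc3a2; those of Slc38a1, Slc7a3, Slc7a5 and Slc1a5 were not analysed here. The core TGATGNAA was searched on both strands, where its other strand reads TTNCATCA. Slc7a11 held 2 matches and Slc1a4 held 1, while 3.97% of all 32851 promoters held at least 1 and 0.070% held 2 or more. The other 4 genes had none of these letters in that window, which does not bear on elements elsewhere. Capitals mark the matches, and each sequence runs 5′ to 3′ on the minus strand, the coding strand of both genes.
Slc7a11 promoter, chr3:50443633-50443705, from position -92 to -20 relative to the transcript start: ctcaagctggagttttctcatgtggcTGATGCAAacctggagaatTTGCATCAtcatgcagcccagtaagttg
Slc1a4 promoter, chr11:20332694-20332743, from position -30 to 20: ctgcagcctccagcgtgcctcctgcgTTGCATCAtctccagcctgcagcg
The 2 matches of Slc7a11 face opposite ways with 11 bases between them and begin at positions -66 and -47. The match of Slc1a4 begins at position -4 and so lies across the transcript start.

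Upf3a mRNA had 5.27, 4.52, 4.76 and 4.16 FPKM (fragments scaled to transcript length and to the size of the library) in the Upf3a siRNA arm at 0, 15, 105 and 225 min, against 13.6, 14.0, 14.0 and 15.0 FPKM in the control arm. The level was 33.1% of control, and the authors' confidence limits of the arms were apart at 4 of 4 times. By exact sign-flip, two-sided, over 4 times p was 0.12, which is as low as this design can go. FPKM totals ran from 537437 to 923333 in the Upf3a siRNA arm and from 537350 to 880304 in the control arm. Read depth is unknown. The level of the authors' limits is not stated; over all genes the upper one stood 32.0% to 32.5% above its FPKM at the median. Of 10 embryonal carcinoma markers 9 passed the filter on low values, a mean FPKM of 1 or more; Zfp42 did not. The summed level of the 10 was 2557 to 4276 FPKM in the Upf3a siRNA arm and 2083 to 3439 FPKM in the control arm. Most of this was Pou5f1, at 2120 ± 744 FPKM in the Upf3a siRNA arm and 1908 ± 639 FPKM in the control arm (SD, n = 4 times each). The summed levels in the same order were 9.14 to 12.9 and 11.0 to 16.2 FPKM for 7 fibroblast markers, 49.4 to 65.5 and 57.6 to 79.8 FPKM for 7 neural markers, and 121 to 132 and 66.2 to 76.0 FPKM for 8 mesoderm and endoderm markers. Below 1 FPKM on average were 4 of the fibroblast markers (Col3a1, Pdgfra, Dcn and Lum), 3 of the neural ones (Neurod1, Neurog2 and Pax6) and 5 of the mesoderm and endoderm ones (Gata4, Sox17, Foxa2, Afp and Hand1). Others were well above it: the mesoderm gene T averaged 109.5 ± 6.34 FPKM in the Upf3a siRNA arm and 59.7 ± 4.64 FPKM in the control arm, and the neuronal tubulin Tubb3 46.2 ± 7.45 FPKM in the Upf3a siRNA arm and 52.9 ± 9.69 FPKM in the control arm (SD, n = 4 times each). In bulk RNA, fewer cells of a type and less RNA per cell cannot be told apart.

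All 10 transporters were measured above the filter, with a valid status for each of their 80 values, and no locus overlapped another gene of the table. Levels spanned a wide range. Slc7a3, a cationic amino acid transporter, was the most abundant with a mean of 139 FPKM over the 8 conditions, above the level of 94.7% of the 11452 genes tested. Slc7a5 (105 FPKM), Slc3a2 (91.7 FPKM) and Slc38a2 (61.5 FPKM) followed, then Slc1a5 (36.1 FPKM), Slc7a6 (34.5 FPKM) and Slc38a1 (32.6 FPKM), and Slc1a4 (18.2 FPKM), Slc7a1 (9.86 FPKM) and Slc7a11 (6.17 FPKM) were lowest. The limits of Slc7a3 and Slc7a5 overlapped in 8 of 8 conditions, as did those of Slc7a5 and Slc3a2 and of Slc1a5 and Slc7a6, so these neighbours are not ordered beyond the authors' error. Slc38a2 has no single place in the order: it ranked 2 of 10 at 0 min in both arms and 8 of 10 at 225 min in both arms.

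**Figure D1:**
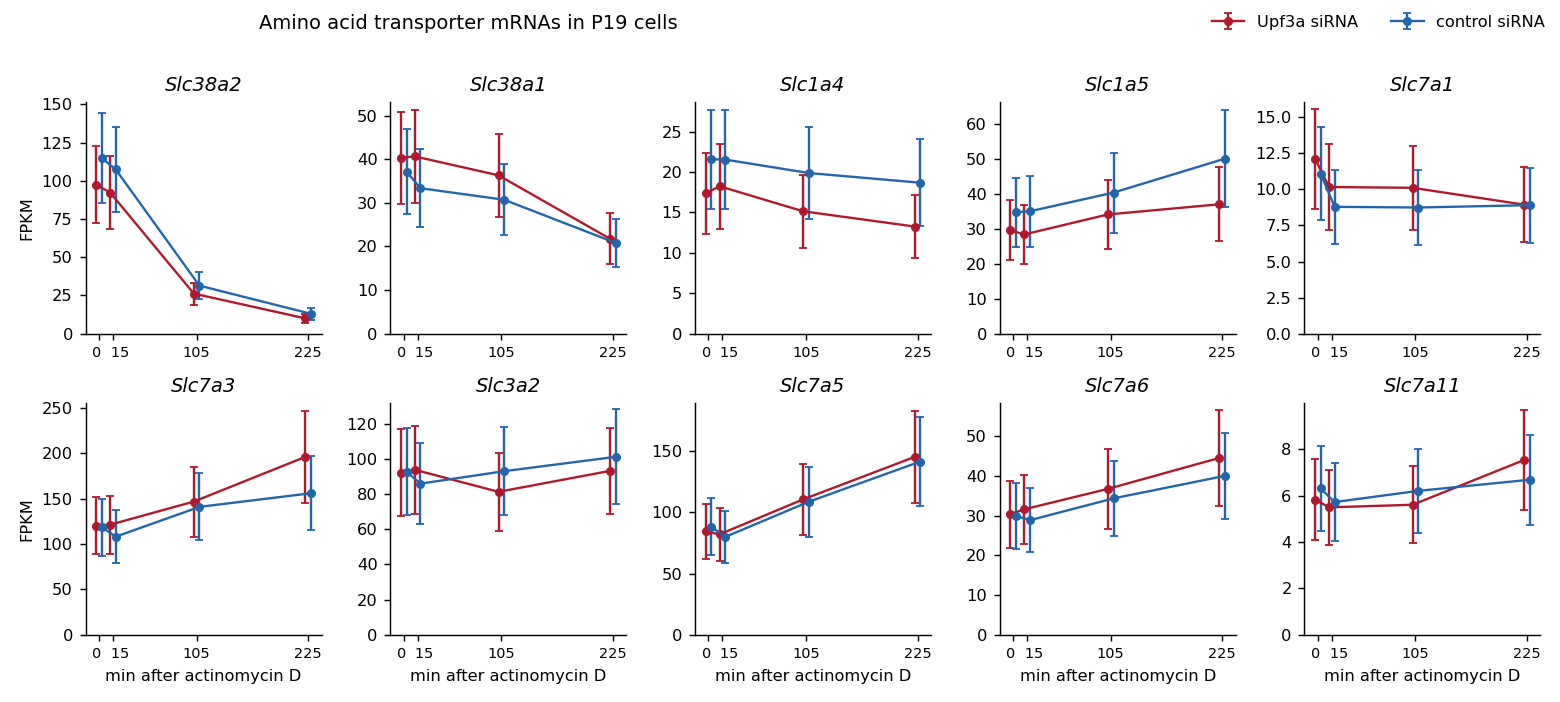
FPKM (y axis, linear, from 0) of the 10 transporter mRNAs against minutes after actinomycin D (x axis), in the Upf3a siRNA arm (red) and the control siRNA arm (blue); points are the deposited values of each condition, bars the authors' limits, and points are set slightly apart for clarity. At 225 min Slc38a2 is at 9.94 FPKM in the Upf3a siRNA arm and 13.0 FPKM in the control arm, Slc7a5 is at its highest FPKM in both arms (145 and 142), and Slc1a4 stays lower in the Upf3a siRNA arm throughout.

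Slc38a2 (chr15:96687392-96699698, minus strand, mm10) encodes SNAT2, a sodium-coupled carrier of small neutral amino acids whose level is known to adapt to amino acid supply. It had 97.3, 92.3, 26.2 and 9.94 FPKM at 0, 15, 105 and 225 min in the Upf3a siRNA arm, against 115, 107, 31.4 and 13.0 FPKM in the control arm. The mRNA was lower in the Upf3a siRNA arm at each time, while time moved it far more than the arm did. At 225 min 10.2% of the 0 min level was left in the Upf3a siRNA arm and 11.3% in the control arm. The slope over both arms was -0.86 ± 0.05 log2 units per hour (SE, limma adjusted p = 1.9e-06), at percentile 0.12 of all genes tested. The slopes of the arms correspond to a half-life, relative to the bulk of mRNA, of 1.14 h in the Upf3a siRNA arm and 1.19 h in the control arm. The fall had barely begun at 15 min (94.8% left in the Upf3a siRNA arm and 93.4% in the control arm), and was steepest between 15 and 105 min, at -1.21 log2 units of FPKM per hour in the Upf3a siRNA arm and -1.18 in the control arm.

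Slc38a1 (chr15:96571418-96642913, minus strand), its neighbour on chromosome 15, encodes SNAT1 of the same family. It had 40.3, 40.6, 36.3 and 21.7 FPKM in the Upf3a siRNA arm, against 37.2, 33.4, 30.7 and 20.8 FPKM in the control arm. It fell in both arms, much more slowly than Slc38a2, with a slope of -0.21 ± 0.02 log2 units per hour (SE, limma adjusted p = 6.5e-05). At 225 min 53.9% was left in the Upf3a siRNA arm and 56.0% in the control arm. For both family members the authors' limits at 225 min lay below those at 0 min in both arms, and no other transporter showed this. Over all genes tested the same was true of 19.8% in the Upf3a siRNA arm and 18.0% in the control arm.

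Slc1a4 (chr11:20302180-20332713, minus strand) and Slc1a5 (chr7:16781346-16798274, plus strand) encode ASCT1 and ASCT2, sodium-dependent exchangers of neutral amino acids; ASCT1 carries serine and alanine, and ASCT2 is a main route of glutamine. Slc1a4 had 17.4, 18.2, 15.1 and 13.2 FPKM in the Upf3a siRNA arm, against 21.6, 21.5, 19.9 and 18.7 FPKM in the control arm. Its highest value in the Upf3a siRNA arm was below its lowest in the control arm, and it was the single transporter whose arms did not overlap. Over all genes 13.7% had arms that did not overlap, counting both directions. Slc1a5 had 29.5, 28.4, 34.1 and 37.0 FPKM in the Upf3a siRNA arm, against 34.7, 35.0, 40.3 and 50.1 FPKM in the control arm. The value of the Upf3a siRNA arm was the lower one at each of the 4 times for both genes. They parted over time: Slc1a4 fell relative to the bulk (slope -0.083 ± 0.017 log2 units per hour, SE, limma adjusted p = 0.0017) while Slc1a5 rose (0.12 ± 0.02, limma adjusted p = 1.7e-04), though scaled to ribosomal protein genes Slc1a5 also fell (-0.17).

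Slc7a1 (chr5:148327410-148399904, minus strand) and Slc7a3 (chrX:101079221-101085352, minus strand) encode CAT1 and CAT3, carriers of arginine, lysine and ornithine that work without a partner subunit. Slc7a1 had 12.1, 10.2, 10.1 and 8.94 FPKM in the Upf3a siRNA arm, against 11.1, 8.79, 8.75 and 8.91 FPKM in the control arm. Its values of the arms met at 225 min, and its slope was -0.063 ± 0.026 log2 units per hour (SE, limma adjusted p = 0.053). That slope passed without 15 min (-0.091, adjusted p = 0.015), with a filter at a mean of 5 FPKM (adjusted p = 0.046), with median-of-ratios scaling (-0.072, 0.033), with limma's trend and robust options (0.042) and scaled to ribosomal protein genes (-0.32, 5.8e-06). After quantile normalization it was 0.014 (adjusted p = 0.65). Slc7a3 had 120, 121, 147 and 196 FPKM in the Upf3a siRNA arm, against 119, 108, 141 and 156 FPKM in the control arm. Slc7a3 rose relative to the bulk, by 0.16 ± 0.02 log2 units per hour (SE, limma adjusted p = 1.3e-04). Scaled to ribosomal protein genes its slope was -0.13, and after quantile normalization 0.0022 (adjusted p = 0.90).

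Slc3a2 (chr19:8706882-8723369, minus strand) encodes the heavy chain of the heteromeric transporters, the glycoprotein CD98, which brings its light chains to the membrane. It had 92.3, 93.9, 81.3 and 93.3 FPKM in the Upf3a siRNA arm, against 92.7, 86.0, 93.1 and 101 FPKM in the control arm. The slope was 0.021 ± 0.022 log2 units per hour (SE, limma adjusted p = 0.40), but it passed as a fall after quantile normalization (-0.12, adjusted p = 0.0017) and scaled to ribosomal protein genes (-0.27, adjusted p = 1.2e-05).

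Of the light chains, Slc7a5 (chr8:121881146-121907686, minus strand) encodes LAT1, which carries leucine and other large neutral amino acids. It had 84.4, 82.1, 111 and 145 FPKM in the Upf3a siRNA arm, against 88.3, 79.9, 109 and 142 FPKM in the control arm. It had the highest slope of the transporters, 0.21 ± 0.02 log2 units per hour (SE, limma adjusted p = 1.3e-05), at percentile 92.1 of all genes. At 225 min it stood at 172% of its 0 min level in the Upf3a siRNA arm and 160% in the control arm. Its limits at 225 min were above those at 0 min in the Upf3a siRNA arm, as for 7.01% of all genes; none of the transporters did this in the control arm, where 3.32% of all genes did. Slc7a6 (chr8:106168875-106198704, plus strand), the exchanger of cationic for neutral amino acids y+LAT2, had 30.3, 31.6, 36.7 and 44.5 FPKM in the Upf3a siRNA arm, against 29.9, 28.8, 34.3 and 40.0 FPKM in the control arm. Its slope was 0.13 ± 0.01 log2 units per hour (SE, limma adjusted p = 3.9e-05).

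Slc7a11 (chr3:50364936-50443613, minus strand) encodes xCT, which imports cystine for glutathione in exchange for glutamate. It had 5.83, 5.49, 5.60 and 7.53 FPKM in the Upf3a siRNA arm, against 6.31, 5.72, 6.20 and 6.68 FPKM in the control arm. The Upf3a siRNA arm was lower at 0, 15 and 105 min and higher at 225 min. Its slope of 0.063 ± 0.022 log2 units per hour (SE, limma adjusted p = 0.028) did not pass without 15 min (0.054, adjusted p = 0.13), without 225 min (0.0015, adjusted p = 0.97) or without the filter on low values (adjusted p = 0.076). The signs of the 3 light chain slopes turned when scaled to ribosomal protein genes, to -0.077 for Slc7a5, -0.15 for Slc7a6 and -0.19 for Slc7a11.

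Because FPKM is per length, the light chain mRNAs can be set against the heavy chain mRNA within a condition, and this ratio does not depend on scaling between conditions. The sum of Slc7a5, Slc7a6 and Slc7a11 over Slc3a2 was 1.31, 1.27, 1.88 and 2.12 at 0, 15, 105 and 225 min in the Upf3a siRNA arm, against 1.34, 1.33, 1.60 and 1.86 in the control arm. The ratio was higher at 105 and 225 min than at the first pair of times in both arms. Slc7a5 made up 68.9% to 73.6% of this sum in the Upf3a siRNA arm and 69.8% to 75.2% in the control arm. The sum does not cover every light chain measured. Slc7a7, the light chain y+LAT1, is outside the transporters chosen here and was left out. It averaged 58.2 FPKM in the Upf3a siRNA arm and 45.3 FPKM in the control arm, so both the ratio and the share of Slc7a5 depend on the list. The ratio has 1 value per condition and was given no test.

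**Figure D2:**
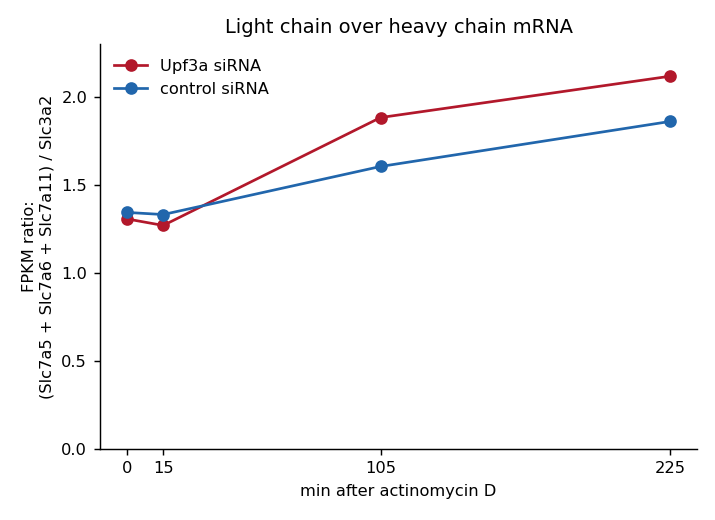
Ratio of summed FPKM of the light chains Slc7a5, Slc7a6 and Slc7a11 to FPKM of the heavy chain Slc3a2 (y axis, from 0) against minutes after actinomycin D (x axis), for the Upf3a siRNA arm (red) and the control arm (blue), 1 value per condition. The ratio ends at 2.12 in the Upf3a siRNA arm and 1.86 in the control arm, above the 1.27 to 1.34 seen at 0 and 15 min. The light chain Slc7a7 is not in the sum.

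The first comparison was the level in the Upf3a siRNA arm over the control arm across the 4 times. Slc1a4, Slc1a5 and Slc38a2 were lower after Upf3a knockdown and Slc38a1 was higher. The called differences ran from -0.34 to 0.17 on the log2 scale. The other 6 transporters did not pass the limma test at an adjusted p of 0.05. That is 3 lower against a background of 22.3% of all 11452 genes called lower, and 1 higher against 26.1% called higher, so the number called is near what the whole table gives. The median log2 difference was -0.011 over the 10 transporters and 0.0046 over all genes tested. The authors' limits of the arms overlapped at 4 of 4 times for each transporter, where 2.90% of all genes had them apart at 1 time or more and 0.375% at all 4 times. The log2 difference had the same sign at all 4 times for 7 transporters, against 60.4% of all genes.

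Slc1a4 averaged 16.0 ± 2.25 FPKM in the Upf3a siRNA arm and 20.4 ± 1.41 FPKM in the control arm (SD, n = 4 times each), a log2 difference of -0.34 ± 0.05 (SE, limma adjusted p = 0.0015). Slc1a5 averaged 32.3 ± 4.02 FPKM in the Upf3a siRNA arm and 40.0 ± 7.17 FPKM in the control arm, a log2 difference of -0.30 ± 0.05 (adjusted p = 0.0024). Slc38a2 averaged 56.4 ± 44.8 FPKM in the Upf3a siRNA arm and 66.7 ± 52.0 FPKM in the control arm, and its log2 difference was -0.26 ± 0.04 (adjusted p = 0.0023). These 3 kept their call with every scaling tried and without any one time point, and lost it where time was left out of the fit (adjusted p = 0.18, 0.40 and 1.0), since the spread over time then enters the error. As a share of control, Slc1a4 stood at 80.4%, 84.7%, 76.2% and 70.9% at 0, 15, 105 and 225 min, and Slc1a5 at 85.1%, 81.1%, 84.5% and 73.9%.

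Slc38a1 averaged 34.8 ± 8.90 FPKM in the Upf3a siRNA arm and 30.5 ± 6.99 FPKM in the control arm (SD, n = 4 times each), a log2 difference of 0.17 ± 0.05 (SE, limma adjusted p = 0.026). The call did not hold without 15 min (0.14, adjusted p = 0.12), without 105 min (0.15, 0.099), after quantile normalization (0.12, 0.074) or without the filter on low values (adjusted p = 0.10). Slc7a1 (0.13, 95% interval 0.013 to 0.24, adjusted p = 0.064), Slc7a3 (0.14, interval 0.0051 to 0.28, adjusted p = 0.081) and Slc7a6 (0.098, interval -0.0032 to 0.20, adjusted p = 0.098) had positive differences at all 4 times that did not pass. Slc7a1 passed without 225 min (0.17, adjusted p = 0.029), and Slc7a1, Slc7a3 and Slc7a6 passed when scaled to ribosomal protein genes (0.20, 0.22 and 0.18). The differences of Slc7a5 (0.0091, interval -0.089 to 0.11), Slc7a11 (-0.030, interval -0.16 to 0.10) and Slc3a2 (-0.048, interval -0.19 to 0.090) lay close to 0, and their signs turned with another scaling. In the same contrast 7 of 9 tested embryonal carcinoma markers were called higher and 0 lower, where over all genes 26.1% were called higher and 22.3% lower. Of the other lineages, 2 of 3 tested mesoderm and endoderm markers were called higher (T 0.87 and Eomes 0.72), 2 of 4 neural markers lower (Elavl3 -0.80 and Tubb3 -0.19) and 1 of 3 fibroblast markers lower (Col1a2 -0.54). The part of these in the transporter differences was not tested.

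**Figure D3:**
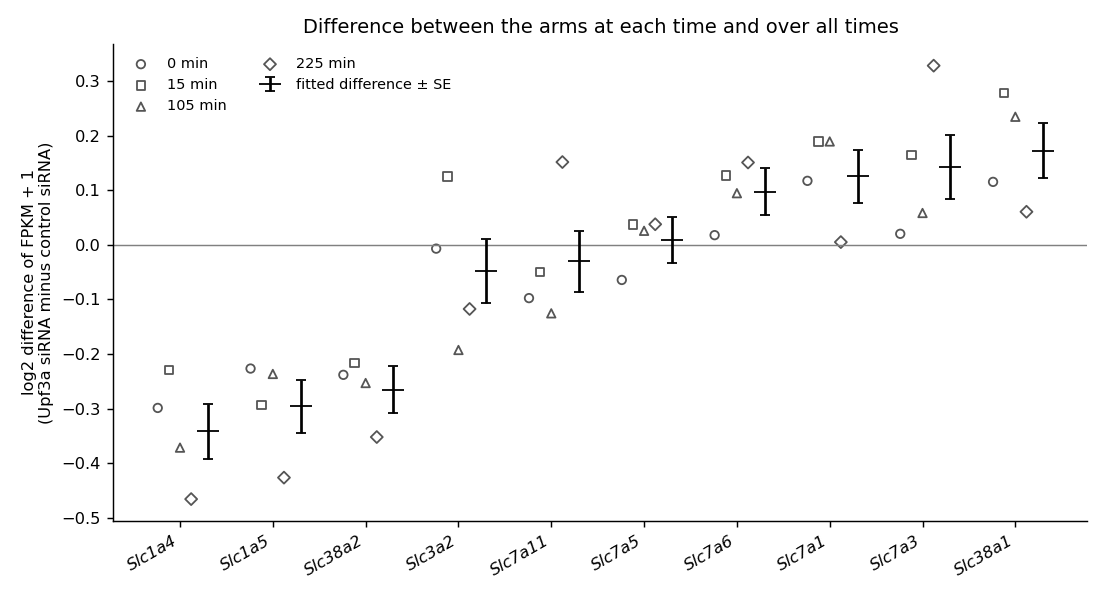
Log2 difference of FPKM + 1, Upf3a siRNA minus control siRNA (y axis), for each transporter (x axis, ordered by the fitted difference); open symbols are the 4 times, and the black mark is the fitted difference with its SE. Slc1a4, Slc1a5 and Slc38a2 lie below 0 at each time, and the 4 times of Slc3a2, Slc7a11 and Slc7a5 fall on both sides of 0.

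The second comparison was the difference in slope between the arms, which asks whether an mRNA was lost faster or slower after Upf3a knockdown. No transporter passed limma (adjusted p from 0.77 to 0.91, and none at an unadjusted p of 0.05), where 0.00873% of all genes did. The largest positive differences were those of Slc7a3 (0.062 log2 units per hour, 95% interval -0.019 to 0.14, slopes 0.19 in the Upf3a siRNA arm and 0.13 in the control arm) and Slc7a11 (0.057, interval -0.020 to 0.13). The largest negative ones were those of Slc1a4 (-0.055, interval -0.12 to 0.013, slopes -0.11 in the Upf3a siRNA arm and -0.055 in the control arm) and Slc3a2 (-0.053, interval -0.14 to 0.034). Slc38a2 had slopes of -0.88 in the Upf3a siRNA arm and -0.84 in the control arm, a difference of -0.033 with an interval from -0.099 to 0.033. Differences inside these intervals were not detectable with this error. Without 225 min the signs of Slc7a3 (-0.011), Slc7a11 (-0.028), Slc38a1 (0.034), Slc7a1 (0.027) and Slc1a5 (0.0096) turned.

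**Figure D4:**
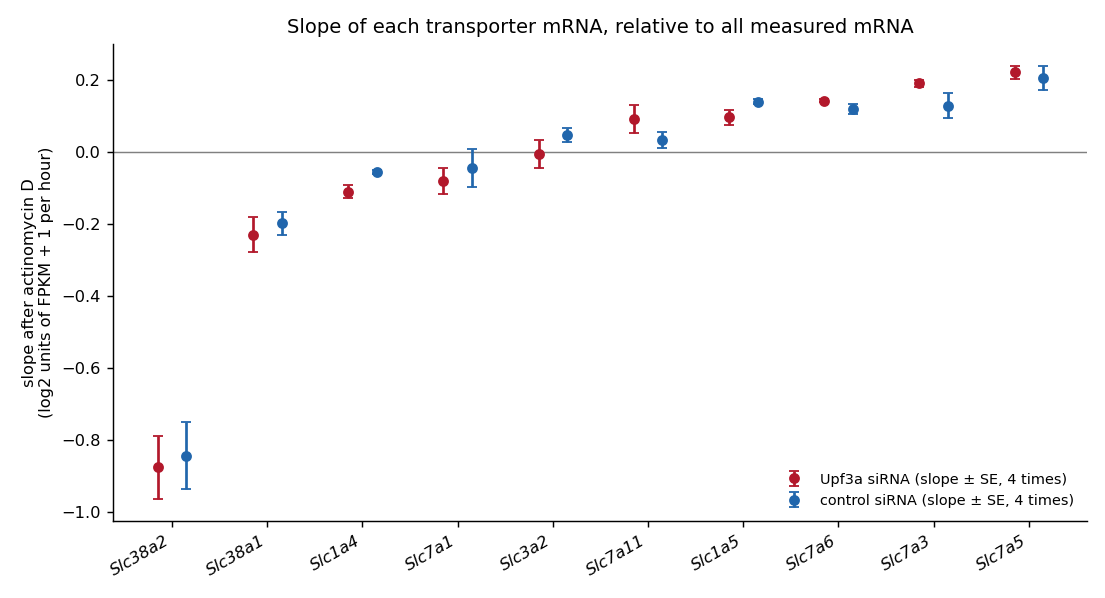
Slope of log2(FPKM + 1) over hours after actinomycin D (y axis) for each transporter (x axis, ordered by slope), in the Upf3a siRNA arm (red, left) and the control arm (blue, right), with the SE of a line through 4 times. Slc38a2 stands apart at -0.88 in the Upf3a siRNA arm and -0.84 in the control arm, and the arms differ little beside the range between genes. Values above 0 are gains in FPKM, not in share of the FPKM total.

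The third comparison was the slope over both arms. Of the 10 transporters 3 fell, Slc38a2, Slc38a1 and Slc1a4, and 5 rose, Slc7a5, Slc7a3, Slc7a6, Slc1a5 and Slc7a11; over all genes 38.6% fell and 42.7% rose. Each of the 5 rises became a fall when scaled to ribosomal protein genes. The median slope was 0.042 log2 units per hour over the transporters and 0.014 over all genes. A rise here is a positive slope of the deposited FPKM, tested against 0, with no slope of other genes subtracted. The words relative to the bulk above refer to this scale, on which the median gene had a slope of 0.014. Summed FPKM itself rose between 0 and 225 min. The totals went from 537437 to 923333 in the Upf3a siRNA arm and from 562848 to 880304 in the control arm. Slc7a3, Slc7a6, Slc1a5 and Slc7a11 gained less than this in both arms, so their share of the total shrank. At 225 min they stood at 163%, 147%, 125% and 129% of their 0 min FPKM in the Upf3a siRNA arm. In the control arm they stood at 132%, 134%, 144% and 106%. Slc7a5, at 172% and 160%, gained about as much as the total. Scaled to 75 ribosomal protein genes the median of all genes was -0.23, and all 10 transporters had a negative slope that passed, from -0.077 for Slc7a5 to -1.13 for Slc38a2. On that scale Slc7a5, Slc7a3, Slc7a6, Slc1a5 and Slc7a11 (-0.19) lay above the median of all genes, and Slc3a2 (-0.27), Slc7a1 (-0.32), Slc1a4 (-0.36), Slc38a1 (-0.49) and Slc38a2 below it. At 15 min 5 of the 10 transporters were below their 0 min FPKM in the Upf3a siRNA arm and 9 in the control arm, where over all genes 49.8% were in the Upf3a siRNA arm and 62.4% in the control arm. The level at 15 min was 83.9% to 105% of that at 0 min in the Upf3a siRNA arm and 79.2% to 101% in the control arm.

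Untranslated regions (UTRs) hold many of the sequences that set mRNA half-life, such as AU-rich elements, and these were read from 1 GENCODE vM21 transcript per gene (GRCm38). Slc38a2 has a 3′ UTR of 2735 bases with 5 ATTTA pentamers, Slc38a1 one of 5293 bases with 3, Slc7a1 one of 5030 bases with 6 and Slc7a11 one of 7364 bases with 11. Slc7a6 has 2068 bases with 5 pentamers and Slc1a4 2086 bases with 1. Slc7a5 with 1890 bases, Slc1a5 with 535, Slc7a3 with 240 and Slc3a2 with 106 hold none. At least 1 pentamer was found in 67.2% of the 10096 tested genes that had such a transcript. The longer motif TTATTTATT was found in 1 transporter, Slc7a6, and in 7.5% of these genes, whose median slope was -0.10 log2 units per hour, against 0.026 for those without it. The transporter that holds it was among those that rose. Both sites are shown because the fastest transporter mRNA, Slc38a2, carries pentamers alone, as do Slc38a1, Slc7a1, Slc7a11 and Slc1a4. Slc38a2 has 1.83 pentamers per kb of 3′ UTR, at percentile 61.1 of the tested genes, and Slc7a6 has 2.42. Capitals mark the motif, and the stop codon lies 574 bases before the Slc38a2 pentamer and 960 bases before the Slc7a6 site.
Slc38a2 site, chr15:96689537-96689565, minus strand: aatttcattgatATTTAaaaatgaatatt
Slc7a6 site, chr8:106197588-106197616, plus strand: ctgtatgtcaTTATTTATTgatatttaat
The Slc38a2 site is the pentamer with the most A and T around it. Across the 10 transporters 3′ UTR length and slope had a Spearman rho of -0.53, and across the tested genes of -0.34, both given as descriptions; genes are not independent replicates and share the libraries.

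Features that can draw NMD include an exon junction well after the stop codon, an upstream reading frame and a long 3′ UTR. None of the 10 transcripts has an exon junction more than 50 bases after its stop codon. An upstream ATG was present in 5 of them (Slc38a1, Slc7a1, Slc7a3, Slc7a11 and Slc1a5), against 50.8% of tested genes. The median 3′ UTR was 2077 bases over the transporters and 1024.5 bases over the tested genes. GENCODE lists an NMD transcript for 1, Slc7a6, and the FPKM is per gene, so its share is not seen.

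Atf4, the factor that several of these genes answer to, had 129, 124, 104 and 64.4 FPKM in the Upf3a siRNA arm, against 115, 99.4, 82.6 and 50.7 FPKM in the control arm. Atf4 mRNA was higher in the Upf3a siRNA arm (log2 difference 0.28 ± 0.05, SE, limma adjusted p = 0.0024) and fell with time in both arms (slope -0.28 log2 units per hour). The authors' limits of the arms overlapped for Atf4 at all 4 times, as they did for each transporter. Of 34 tested genes of the integrated stress response list, 6 were higher and 14 lower in the Upf3a siRNA arm, against 26.1% and 22.3% of all genes. The median log2 difference of the list was -0.078, and that of all genes 0.0046. Sesn2, a stress-induced inhibitor of mTORC1 signalling, averaged 15.0 ± 6.99 FPKM in the Upf3a siRNA arm and 10.6 ± 5.15 FPKM in the control arm. Mthfd2, a mitochondrial one-carbon enzyme and Atf4 target, averaged 54.8 ± 8.09 against 71.4 ± 9.39 FPKM, Eif2ak3, the kinase PERK, 7.69 ± 3.41 against 10.5 ± 4.35 FPKM, and Stc2 5.19 ± 2.35 against 8.12 ± 3.12 FPKM in the same order (SD, n = 4 times). Slc1a4, Slc1a5 and Slc38a2 were lower in the arm where Atf4 mRNA was higher, and Slc38a1 was higher there (log2 difference 0.17). The other transporters did not pass, among them Slc7a11 (-0.030). Atf4 protein was not measured, and the part of Atf4 in these differences was not tested.

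Of 42 further plasma membrane amino acid transporters 19 passed the filter, of which 5 were higher and 6 lower in the Upf3a siRNA arm. Slc7a7, the light chain y+LAT1, averaged 58.2 ± 4.22 FPKM in the Upf3a siRNA arm and 45.3 ± 3.63 FPKM in the control arm (log2 difference 0.36, limma adjusted p = 5.0e-04). Lower in the Upf3a siRNA arm were the glycine transporter Slc6a9 (-0.39), the proton-coupled carrier Slc36a4 (-0.30) and the aromatic amino acid transporter Slc16a10 (-0.29). Of the 19, slopes over both arms passed upward for 11 and downward for 3, against 42.7% and 38.6% of all genes. Slc38a4 had a slope of 0.17 and Slc6a9 one of -0.13 log2 units per hour. Of 32 genes by which mTORC1 senses amino acids, 11 were higher and 4 lower, among them Rragd (0.42) and Rptor (0.39), a Rag GTPase and the mTORC1 scaffold, and Mios (-0.21). Of 16 genes of cystine and glutathione use 5 were higher and 3 lower, with glutathione reductase, Gsr, at 0.39 and glutathione synthetase, Gss, at -0.39. The median log2 difference was 0.024 for the further transporters, 0.021 for the mTORC1 list and -0.013 for the glutathione list, and these level counts stand against the 26.1% of all genes called higher and 22.3% called lower. No gene of these lists was called for a difference in slope between the arms, where 0.00873% of all genes were. At an unadjusted limma p below 0.05, 1 gene of the mTORC1 list passed.

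The patterns over the 8 conditions fell into sets that time separates. Slc7a3, Slc7a5 and Slc7a6 ran together (Pearson r 0.944 to 0.985 on log2(FPKM + 1)) and opposite to Slc38a2 (-0.951 to -0.983). Slc3a2 followed none of the light chains Slc7a5, Slc7a6 and Slc7a11 closely (r 0.34, 0.26 and 0.52 in that order). Outside the family and at a mean of 5 FPKM or more, the genes most like Slc38a2 were Zfp830, Sik1 and Stk17b (r of 0.9997, 0.9994 and 0.9994), and those most like Slc1a5 were Serinc5, Sumf1 and Bbs4 (0.995, 0.993 and 0.992). The nearest gene was Ctdp1 for Slc38a1 (0.999), Cdk2ap1 for Slc7a3 (0.999), Hdac1 for Slc7a5 (0.997), Arpc2 for Slc7a6 (0.999), Tank for Slc1a4 (0.989), Tmem167 for Slc7a11 (0.983), Naa50 for Slc7a1 (0.959) and Ddx50 for Slc3a2 (0.871). Such values are common for genes that move with time, since 1394 genes had r above 0.9 with Slc38a2 and 2226 with Slc7a5, while 141 had it with Slc1a4, 2 with Slc7a1 and 0 with Slc3a2. These r share the 8 conditions and their scaling and are descriptions.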

How the data were processed

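RNA sequencing of P19 cells was deposited as 1 table. Reads were aligned with TopHat2 and expression estimated with Cufflinks on mm10, per the submitters' processing notes, without versions; the annotation and how the 2 cultures per condition were combined are not given in the sources used here. The table's FPKM values and their limits are the authors', per the file headers; depth is unknown. Columns were matched to conditions by the arm and time in their names. Loci start at 0 in the table and are printed 1-based.

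A filter kept 11452 genes whose FPKM averaged at least 1, and log2(FPKM + 1) was fitted with limma 3.58.1 in R 4.3.3, with Benjamini-Hochberg adjustment over all of them: level with time as a factor plus arm (3 residual degrees of freedom), slope difference as arm by hours (2), slope over both arms with arm (5). Residuals are disagreement between time points, not cultures, so p-values cover that spread alone. The fits were tested on simulated data. Features came from GENCODE vM21, promoters from RefSeq (GRCm38.p6); Python 3.11.15 read the files. List genes under older symbols were matched through RefSeq synonyms.

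All transporters, Upf3a and Atf4 are reported; of each other list up to 4 called genes by moderated t were eligible per comparison, and for likeness the 3 highest r at a mean of 5 FPKM or more. The members and lists were chosen with earlier results of these data known. Pseudocount, filter, scaling, variance model and each time left out were tried as alternatives.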

Additional observations from a re-analysis of the deposited data

How the results depend on the processing

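The table holds 1 value per condition, so a difference between transfections would repeat at every time and cannot be told apart from the knockdown; the authors' limits set what a single time can show. The fit of level compares the arms within each time, so it is paired by time. A block for replicate numbers could not be fitted, since each condition has 1 sample.

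Of the transporters 3 were lower after Upf3a knockdown and 1 was higher. Lower calls became 0 with arm alone in the fit and 0 by the authors' limits. Higher calls became 0 without the filter, after quantile normalization, without 15 min, without 105 min, with arm alone and by the limits, 2 without 225 min and 4 when scaled to ribosomal protein genes. For slopes over both arms, 5 rose and 3 fell, and scaled to ribosomal protein genes 0 rose and 10 fell. No alternative gave a call for a difference in slope. Calls over all genes for level were 2009 higher and 1973 lower without the filter, 3923 and 1301 scaled to ribosomal protein genes, and 358 and 129 with arm alone, against 2986 and 2557; for slope over both arms they were 54 and 10669 scaled to ribosomal protein genes, against 4891 and 4423. Differences in slope gave 22 calls without 0 min, 7 without 105 min and 10 without 225 min, against 1. Split by direction, higher first, these were 10 and 12, 3 and 4, and 6 and 4. Without 15 min 2 were called higher and 0 lower. With limma's trend and robust options 3 were called higher and 3 lower, and without the filter 0 either way.

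Signs turned as follows; the cause was not tested. Level: Slc3a2 (0.034 scaled to ribosomal protein genes, 0.00028 without 105 min), Slc7a11 (0.039 and 0.0015 in the same order) and Slc7a5 (-0.021 with median-of-ratios scaling, -0.047 after quantile normalization, -0.00028 without 15 min, -0.00038 without 225 min). Slope difference without 225 min: Slc1a5 (0.0096), Slc38a1 (0.034), Slc7a1 (0.027), Slc7a11 (-0.028) and Slc7a3 (-0.011); scaled to ribosomal protein genes, Slc7a5 (-0.019) and Slc7a6 (-0.012); after quantile normalization, Slc7a5 (-0.0028). Slope over both arms scaled to ribosomal protein genes: Slc1a5 (-0.17), Slc3a2 (-0.27), Slc7a11 (-0.19), Slc7a3 (-0.13), Slc7a5 (-0.077) and Slc7a6 (-0.15); after quantile normalization, Slc3a2 (-0.12) and Slc7a1 (0.014); without 225 min, Slc3a2 (-0.043). Slc7a3 kept its sign but not its call after quantile normalization (0.0022).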
